A study of Mus musculus with 32 samples.

Results

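The genes described here encode the constitutive proteasome, the protease that degrades ubiquitin-tagged proteins, with its assembly chaperones and activators. Members were chosen by symbol: every probe set assigned to a single gene whose symbol begins with Psma, Psmb, Psmc, Psmd, Psme or Psmg and a number. The immunoproteasome genes Psmb8, Psmb9 and Psmb10 were left out. The rule gave 98 of 45137 non-control probe sets, 78 on array A and 20 on array B, for 45 of 18193 genes. A probe set is a group of short probes that together report 1 transcript or a few related ones. A filter on level kept 65 member probe sets of 43 genes on array A and 13 of 10 genes on array B. Psma8, a testis form of a core subunit, was the 1 gene with no probe set left, and its array A probe set lay between 3.17 and 3.89 (log2 value). The symbol rule also took in Psmc3ip, a recombination factor, and Psme3ip1, a protein that binds the Psme3 activator, which are not proteasome subunits.

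The cells were primary mouse embryonic fibroblasts (MEFs) at early passage, either wild type or Oct-1 mutant, each unirradiated and irradiated. Oct-1 is the octamer-binding transcription factor encoded by Pou2f1. There were 4 replicates in each of 4 groups, so 16 extracts, each measured on Affymetrix array types A and B (32 samples). The sources used here do not give the Oct-1 allele, the radiation dose, the time after irradiation, or whether replicates came from separate embryos. The p-values measure only the spread between these samples, which may be technical, and 4 arrays per group limit the precision.

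All 10 fibroblast markers passed the filter on array A, with gene means from 8.40 to 14.76, against 3 of 9 macrophage and blood, 2 of 6 epithelial and 0 of 4 endothelial markers. The log2 summed level of the fibroblast markers ran from 16.46 to 16.71 in wild type arrays and from 16.51 to 16.96 in mutant arrays. A gene counted here when any of its probe sets (25 for these 10) was called, at an adjusted p under 0.05 in the fit described below. Averaged over genotype, 5 of the 10 fell after irradiation and 0 rose, against 5% and 7.47% of all 12511 named genes. Averaged over irradiation, 4 were higher in the mutant and 0 lower, against 6.38% and 4.14%. The part of these markers in the results below was not tested. All 4 p53 target genes checked, Cdkn1a, Mdm2, Ccng1 and Pmaip1, rose with irradiation in both genotypes. Replicates 1 and 2 carry title numbers of 1 run and replicates 3 and 4 those of a second, and arrays of different runs stood apart. Array A member probe sets differed between the runs by -0.52 to 0.32 (log2, second minus first), 9 of 65 by more than 0.2. Their SD within groups had a median of 0.12. The sources used here do not say what the runs are.

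The proteasome is built of a barrel and a cap. The barrel, or core particle, stacks outer rings of alpha subunits (Psma), which form the gate, around inner rings of beta subunits (Psmb), of which Psmb5, Psmb6 and Psmb7 carry the peptidase sites. The cap, or regulatory particle, has a base of ATPases (Psmc) that unfold substrates and a lid (Psmd) that holds the deubiquitinase Psmd14. Dedicated chaperones assemble these parts, and the activators Psme1, Psme3 and Psme4 can take the place of the cap. When proteasome activity is short, the transcription factor Nfe2l1 raises subunit genes together through antioxidant response elements in their promoters.

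To set sequence beside the values below, the promoters of the member genes were searched for that element, spelled TGACNNNGC, and for the octamer bound by Oct-1, ATGCAAAT, on both strands. The 300 bases from 250 before to 50 after each gene's start (RefSeq, GRCm38.p6) were available for 35 of 43 member genes with the core, cap, chaperone and activator roles, as 37 windows. The element was found in 6 windows (16.2%), those of Psmb5, Psmb6, Psmc6, Psmd12, Psmd9 and Psme4, against 12.4% of all 32851 windows. The octamer was found in 1 (2.7%), that of Psmd13, against 1.74% of all windows. The shares are a description of letters, not of binding. The 250 bases before the start are shown, 5′ to 3′ on the gene's strand, for the members called below within 1 genotype or 1 irradiation state, apart from Psmc3, which was not in the table. Psmd13, called when averaged over genotype, is shown as the holder of the octamer. Capitals mark a match to the element, or in Psmd13 to the octamer. The first capital lies 47 bases before the start in Psmb5, 9 in Psmb6, and 227 in Psmc6 and 249 in Psmd13, where the motif reads on the other strand. The Psme1 window held neither motif, and neither did those of Psmb3, Psmc4 and Psmg4, which were called in averaged comparisons and are not shown.
Psmb6, chr11:70525107-70525356, plus strand: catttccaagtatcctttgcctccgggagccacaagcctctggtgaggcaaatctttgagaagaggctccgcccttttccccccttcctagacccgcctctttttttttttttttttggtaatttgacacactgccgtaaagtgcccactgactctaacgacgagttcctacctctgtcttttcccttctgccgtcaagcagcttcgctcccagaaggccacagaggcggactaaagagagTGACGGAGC
Psmb5, chr14:54617996-54618245, minus strand: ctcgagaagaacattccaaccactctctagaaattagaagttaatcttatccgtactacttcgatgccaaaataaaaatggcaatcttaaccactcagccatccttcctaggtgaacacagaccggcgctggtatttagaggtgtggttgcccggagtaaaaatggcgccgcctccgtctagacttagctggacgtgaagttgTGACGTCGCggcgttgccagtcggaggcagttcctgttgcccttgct
Psmc6, chr14:45329574-45329823, plus strand: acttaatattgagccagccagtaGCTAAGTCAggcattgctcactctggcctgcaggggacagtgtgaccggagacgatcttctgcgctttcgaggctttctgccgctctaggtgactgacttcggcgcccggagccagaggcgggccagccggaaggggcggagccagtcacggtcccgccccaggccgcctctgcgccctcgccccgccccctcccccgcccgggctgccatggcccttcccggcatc
Psmd13, chr7:140882144-140882393, plus strand: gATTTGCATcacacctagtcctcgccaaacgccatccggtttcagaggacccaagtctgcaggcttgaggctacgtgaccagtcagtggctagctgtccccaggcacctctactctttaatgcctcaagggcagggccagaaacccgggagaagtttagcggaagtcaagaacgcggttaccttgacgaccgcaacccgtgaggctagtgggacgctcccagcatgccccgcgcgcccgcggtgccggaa
Psme1, chr14:55578244-55578493, plus strand: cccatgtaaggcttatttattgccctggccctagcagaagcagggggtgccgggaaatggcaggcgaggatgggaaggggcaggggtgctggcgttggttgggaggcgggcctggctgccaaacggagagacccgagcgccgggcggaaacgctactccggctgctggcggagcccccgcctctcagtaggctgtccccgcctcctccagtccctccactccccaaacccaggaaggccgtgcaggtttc

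Core, base and lid were well measured. On array A the gene means, taking the probe set with the highest mean, ran from 11.25 to 12.8 for the alpha ring (7 genes), from 10.93 to 12.65 for the beta ring (7 genes) and from 10.96 to 13.06 for the base (9 genes). The lid ran from 10.07 to 12.21 (8 genes), the chaperones from 6.96 to 9.72 (7 genes) and the activators from 8.94 to 10.39 (3 genes). These are log2 values of different probe sets, so they do not rank the genes. Psmb11, the beta subunit of thymic epithelium, was measured on array B alone, at 3.39 to 3.55, near the filter's minimum there of 3.36. Most other array B member probe sets were also dim, such as Psmc2 1443307_at (mean 3.67), Psmd11 1432727_at (3.53) and Psme4 1445147_at (3.58). Psma1 1415695_at (12.17), Psmb5 (11.85) and Psmc5 (10.89) were bright there. The array B counts below therefore rest mostly on dim probe sets.

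The first comparison asked what irradiation did to these genes in each genotype. In wild type cells 3 of 65 member probe sets on array A rose and 0 fell, against 2.33% of all probe sets called higher and 1.5% called lower. In the Oct-1 mutant 2 rose and 0 fell, against 2.81% and 1.84%. Calls here are adjusted p-values under 0.05 in limma, a linear model fitted on all probe sets. On array B 0 of 13 member probe sets were called in either genotype against 0.77% and 0.681% of all. At an unadjusted p under 0.05 there were 0 and 1, against 7.11% and 7.55% of all. The changes were small, between 1.16-fold and 1.19-fold.

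Psmb6, which carries the caspase-like site, was higher on every irradiated array. Its wild type values were 11.43, 11.51, 11.44 and 11.50 without and 11.70, 11.71, 11.76 and 11.63 with irradiation. The mutant values were 11.38, 11.61, 11.52 and 11.45 without and 11.67, 11.77, 11.64 and 11.75 with irradiation. The groups did not overlap in either genotype. The log2 difference was 0.23 in wild type (SE 0.06, 1.17-fold, adjusted p = 0.0337) and 0.22 in the mutant (SE 0.06, 1.16-fold, adjusted p = 0.0397).

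Psme1, a subunit of the heptameric activator that is induced with antigen presentation genes, behaved likewise. Wild type values were 9.83, 9.64, 9.73 and 9.75 without and 10.00, 9.92, 10.04 and 9.93 with irradiation. Mutant values were 9.91, 9.92, 9.92 and 9.92 without and 10.21, 10.15, 10.20 and 10.11 with irradiation. Within each genotype the irradiated arrays all lay above the unirradiated ones, while the unirradiated mutant arrays reached about the level of the lowest irradiated wild type arrays. The difference was 0.24 in wild type (SE 0.05, adjusted p = 0.0224) and 0.25 in the mutant (SE 0.05, adjusted p = 0.0135).

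Psmc3, an ATPase of the base, was the other member to rise in wild type cells. It went from 11.45, 11.44, 11.48 and 11.54 to 11.69, 11.76, 11.73 and 11.61, with no overlap, a difference of 0.22 (SE 0.06, adjusted p = 0.0455). In the mutant it went from 11.55, 11.39, 11.42 and 11.32 to 11.71, 11.66, 11.62 and 11.53, where 1 irradiated array lay below the highest unirradiated one (0.21, SE 0.06, adjusted p = 0.0549, and 0.0204 with the replicate number as a block, a fit described next). Leaving out 1 of the 16 extracts at a time ended the wild type call of Psmc3 in 12 cases (adjusted p up to 0.13), of Psmb6 in 7 (up to 0.104) and of Psme1 in 4 (up to 0.0869). The mutant call of Psmb6 ended in 10 cases (up to 0.128). Without wild type irradiated replicate 1 or 3, or unirradiated replicate 2 or 3, 0 of these 3 wild type calls were left.

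Same-numbered replicates deviated together from their group means (median correlation 0.58 on array A), and other numbers of the same run did so about equally (0.56). The replicate number was therefore also fitted as a block, which takes in the run. With the block, 8 member probe sets on array A rose in wild type and 1 fell, against 5.9% and 4.48% of all. In the mutant 11 rose and 2 fell, against 7.36% and 5.43% of all. In wild type both probe sets of Psmb3, a beta ring subunit, rose (0.19, SE 0.05, adjusted p = 0.0208, and 0.26, SE 0.07, adjusted p = 0.022), as did Psmd1, a scaffold of the base (0.28, SE 0.08, adjusted p = 0.038). The activator subunit Psme3 fell there on 1418078_at (-0.28, SE 0.08, adjusted p = 0.0314). Its brighter probe set, 1418079_at, was not called, with wild type means of 9.06 without and 9.03 with irradiation. In the mutant the alpha subunit Psma4 (0.26, SE 0.08, adjusted p = 0.0474), the beta subunit Psmb1 (0.20, SE 0.06, adjusted p = 0.0329) and the lid subunits Psmd3 (0.24, SE 0.07, adjusted p = 0.0281) and Psmd8 (0.16, SE 0.05, adjusted p = 0.0366) rose. Psmb5, the chymotrypsin-like subunit, also rose there (0.15, SE 0.04, adjusted p = 0.0381), as did Psmc3. Both falls in the mutant were of genes with a second, uncalled probe set: the alpha subunit Psma5 1434356_a_at (-0.33, SE 0.10, adjusted p = 0.0429) and the lid subunit Psmd6 1423696_a_at (-0.31, SE 0.09, adjusted p = 0.0281). Psmd13 and Psmg4 were called higher with the block in both genotypes. Array B gave 0 calls in either genotype with the block as well.

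The other roles are given by the probe set with the smallest p, none of them called without the block. In the alpha ring this was Psma7 in wild type (0.14, SE 0.06, adjusted p = 0.239) and Psma5 1434356_a_at in the mutant (-0.33, SE 0.11, adjusted p = 0.127). In the lid it was Psmd13 1422459_a_at, at 0.24 (SE 0.07, adjusted p = 0.0871) and 0.26 (SE 0.07, adjusted p = 0.0502). Among the chaperones it was Psmg4, at 0.34 (SE 0.12, adjusted p = 0.152) and 0.33 (SE 0.12, adjusted p = 0.146).

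**Figure D1:**
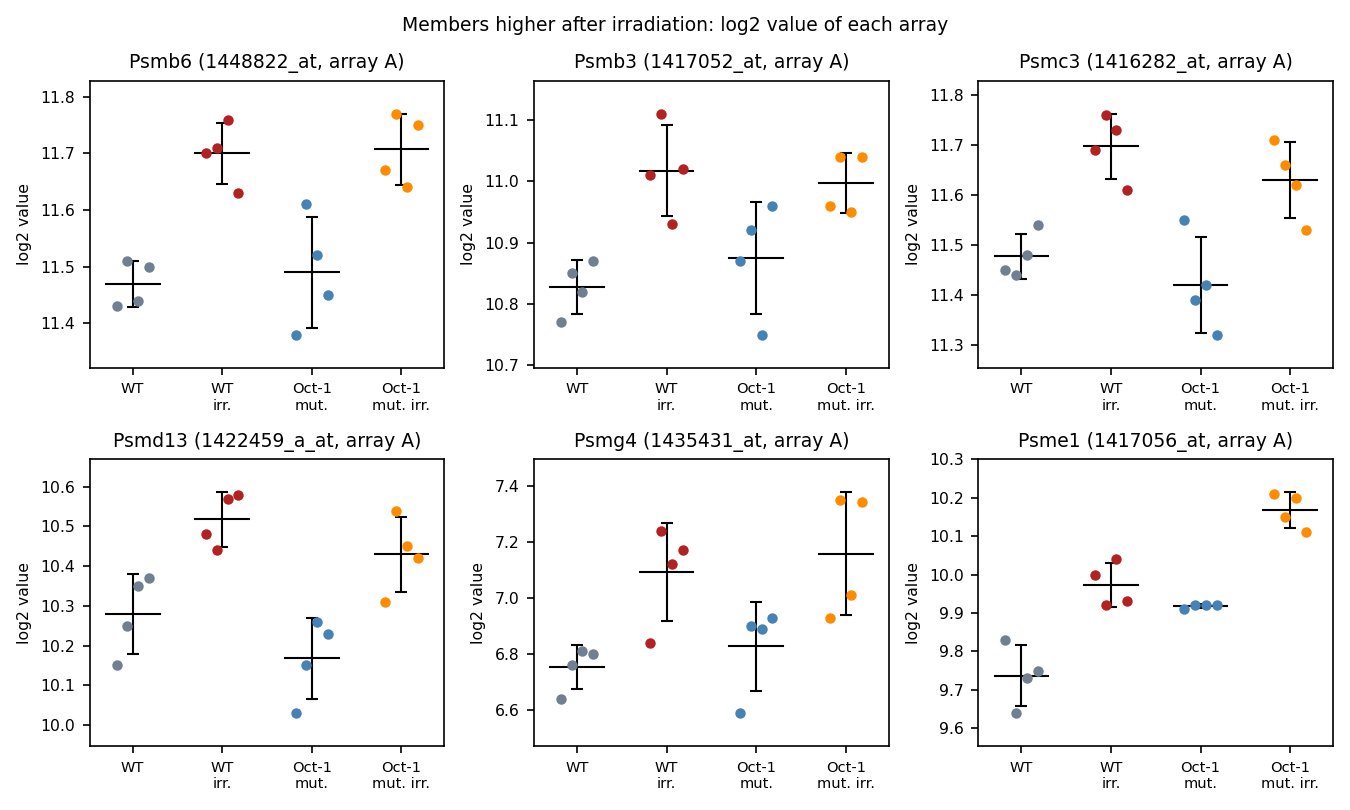
Log2 value (vertical axis) of 6 member probe sets on each array A, by group; points are arrays, replicates 1 to 4 from left to right, and bars are the mean ± SD (n = 4). Psmb6, Psme1, Psmd13 and Psmg4 separate irradiated from unirradiated arrays within each genotype, with differences of 0.22 to 0.34. In the mutant the Psmg4 groups come close, at 6.93.

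Averaging over genotype used all 16 arrays for 1 irradiation difference. Then 9 of 65 array A member probe sets rose and 0 fell, against 7.38% of all probe sets called higher and 5.47% called lower. On array B 0 of 13, most of them dim, passed against 2.14% of all. At an unadjusted p under 0.05 there were 2 on array B, against 10.4% of all. By role, 3 of 10 beta ring probe sets rose, 1 of 15 of the base, 2 of 13 of the lid, 1 of 8 of the chaperones, 1 of 6 of the activators and 0 of 11 of the alpha ring. In the alpha ring 3 were at an unadjusted p under 0.05, against 26.3% of all array A probe sets. The last of the 9 was Psmc3ip. It went from 7.82, 7.72, 7.50 and 7.52 to 8.12, 7.84, 7.77 and 7.73 in wild type, and from 7.44, 7.49, 7.41 and 7.48 to 7.65, 7.80, 7.90 and 7.63 in the mutant (0.26, SE 0.07, adjusted p = 0.0278). The groups overlapped in wild type and were apart in the mutant.

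In the beta ring Psmb6 rose by 0.22 (SE 0.04, adjusted p = 0.00157), with all 8 irradiated arrays above all 8 unirradiated ones. Psmb3 1417052_at went from 10.77, 10.85, 10.82 and 10.87 to 11.01, 11.11, 10.93 and 11.02 in wild type, with no overlap. In the mutant it went from 10.87, 10.92, 10.75 and 10.96 to 10.96, 11.04, 10.95 and 11.04, where the groups met at 10.95 to 10.96. The averaged difference was 0.16 (SE 0.04, adjusted p = 0.0178). Psmb5, which carries the chymotrypsin-like site, rose by 0.11 (SE 0.03, adjusted p = 0.0497), a call that ended when any 1 of 14 extracts was left out (adjusted p up to 0.0997) and with quantile normalization (0.152). The same Psmb5 probe set on array B differed by 0.16 (SE 0.05, adjusted p = 0.122). Psmb7, the trypsin-like subunit, read 12.57, 12.54, 12.68 and 12.73 without and 12.60, 12.55, 12.77 and 12.84 with irradiation in wild type. In the mutant it read 12.53, 12.64, 12.66 and 12.58 without and 12.52, 12.71, 12.71 and 12.72 with irradiation. The groups overlapped in both genotypes, and the averaged difference was 0.06 (SE 0.05, adjusted p = 0.484, 95% interval -0.04 to 0.17).

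Psmd13, a structural lid subunit, rose on both of its array A probe sets, by 0.25 (SE 0.05, adjusted p = 0.00393) and 0.27 (SE 0.07, adjusted p = 0.0164). Unirradiated values of the first were 10.15, 10.25, 10.35 and 10.37 in wild type and 10.03, 10.15, 10.26 and 10.23 in the mutant. Irradiated values were 10.48, 10.44, 10.57 and 10.58 in wild type and 10.31, 10.54, 10.45 and 10.42 in the mutant. The groups were apart within each genotype and overlapped across them. The second, 1437220_x_at, went from 9.81, 9.68, 9.69 and 9.85 to 9.84, 9.84, 10.00 and 10.18 in wild type, and from 9.81, 9.62, 9.80 and 9.52 to 10.06, 10.13, 9.79 and 10.13 in the mutant. Its groups overlapped in both genotypes. As an x_at probe set, it holds probes that also match other sequences. The array B probe set, a different and dim one (mean 5.54), differed by 0.02 (SE 0.05, adjusted p = 0.93).

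Psmg4, a chaperone that helps to build the alpha ring, rose by 0.33 (SE 0.08, adjusted p = 0.0159). It went from 6.64, 6.76, 6.81 and 6.80 to 6.84, 7.24, 7.12 and 7.17 in wild type. In the mutant it went from 6.59, 6.90, 6.89 and 6.93 to 6.93, 7.35, 7.01 and 7.34. Psmc3 rose by 0.22 (SE 0.04, adjusted p = 0.00257) and Psme1 by 0.24 (SE 0.04, adjusted p = 0.000558), each in the same direction within both number runs (Psmc3 0.25 and 0.19, Psme1 within genotypes 0.22 to 0.27).

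With the replicate block the averaged comparison called 20 member probe sets higher and 5 lower, against 14.1% and 11.1% of all on array A. Of 10 beta ring probe sets 7 rose, for 6 of 7 genes: Psmb1 to Psmb6. The additional values were 0.16 for Psmb1 (SE 0.04, adjusted p = 0.00856), 0.20 for Psmb2 (SE 0.05, adjusted p = 0.0108) and 0.13 for Psmb4 (SE 0.04, adjusted p = 0.0323). Psmb4 1438984_x_at (-0.10) and Psmb1 1420052_x_at (-0.06), second probe sets of those genes, were not called and had the opposite sign. An x_at probe set holds probes that also match other sequences.

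In the alpha ring the block called 2 of 11 probe sets higher (18.2%) and 1 lower (9.09%), near the 14.1% and 11.1% of all. Psma4 (0.20, SE 0.06, adjusted p = 0.0167) and Psma7 1423568_at (0.14, SE 0.05, adjusted p = 0.0339) rose, and Psma5 1434356_a_at fell (-0.24, SE 0.07, adjusted p = 0.0233). The other Psma5 probe set differed by 0.05 (adjusted p = 0.432). Psma4 ran from 12.14 to 12.50 unirradiated and up to 13.00 in mutant irradiated replicate 4.

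In the cap, Psmc1 (0.14, SE 0.04, adjusted p = 0.0125), Psmd1 (0.17, SE 0.06, adjusted p = 0.0384), Psmd2 (0.13, SE 0.04, adjusted p = 0.0154), Psmd3 (0.18, SE 0.05, adjusted p = 0.0117) and Psmd8 (0.14, SE 0.03, adjusted p = 0.00634) rose with the block. Psmd2 is, like Psmd1, a scaffold of the base. Psmc6 1417770_s_at (-0.22, SE 0.07, adjusted p = 0.04), Psmd6 1423696_a_at (-0.27, SE 0.06, adjusted p = 0.00445), Psme3 1418078_at (-0.20, SE 0.06, adjusted p = 0.0133) and the chaperone Psmg2 1448212_at (-0.21, SE 0.07, adjusted p = 0.0377) fell. The 3 Psmc6 probe sets differed by -0.22 to -0.01. Means of the brightest, 1417771_a_at, went from 11.26 to 11.28 in wild type and from 11.14 to 11.09 in the mutant. The called Psmd6 probe set was dim (mean 6.43), and the second, brighter one (12.15) differed by 0.04 (adjusted p = 0.494). The second Psme3 probe set, 1418079_at, differed by -0.03 and was not called. Over the 16 genes with several probe sets on array A, all of a gene's probe sets had the same sign in 8 for irradiation and in 11 for genotype.

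**Figure D2:**
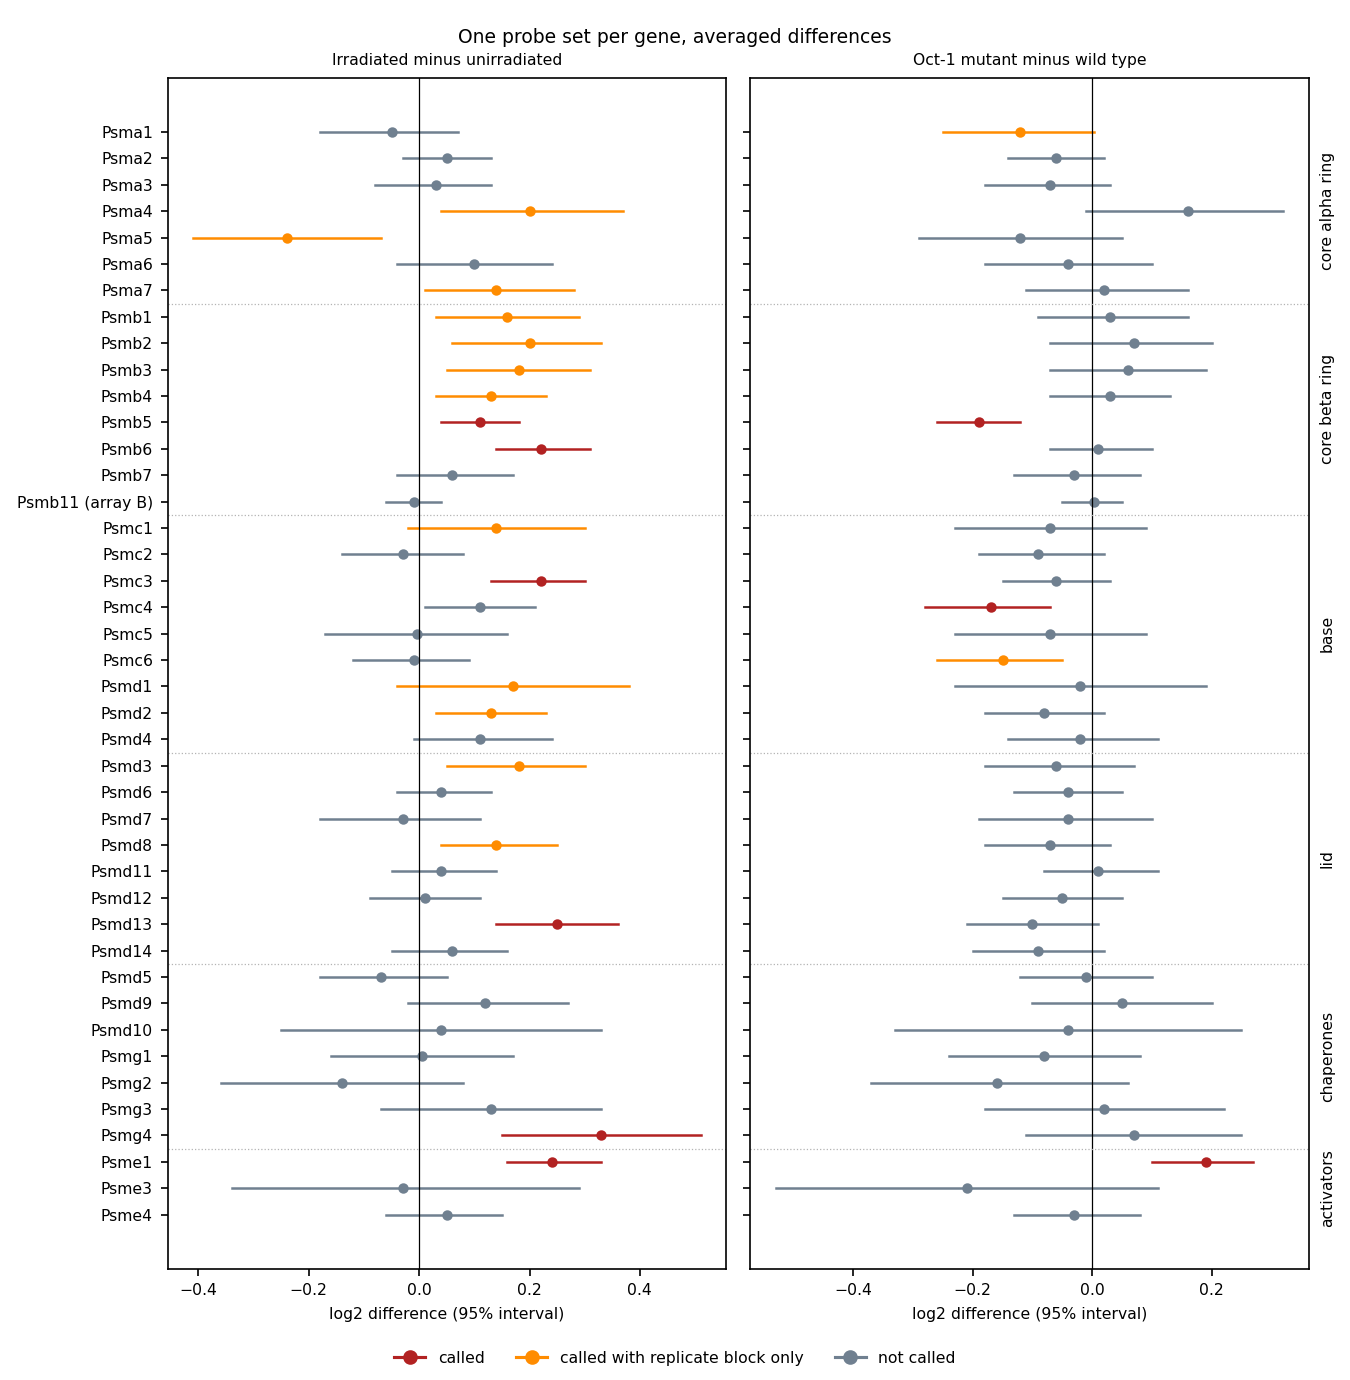
Log2 difference (horizontal axis, point) with its 95% interval (line) for 42 genes in the order of their roles, irradiated minus unirradiated averaged over genotype on the left and Oct-1 mutant minus wild type averaged over irradiation on the right. Red marks called probe sets, orange those called with the replicate block only and grey the others. Each gene is shown by its highest-mean probe set, so called probe sets with lower means, such as Psmb3 1417052_at (0.16), are not drawn; Psmb1 to Psmb6 all lie above 0 on the left.

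The second comparison asked what the Oct-1 mutation did at each irradiation state. Without irradiation 2 of 65 member probe sets on array A were lower in the mutant and 0 higher, against 1.28% of all probe sets called lower and 2.59% called higher. With irradiation again 2 were lower and 0 higher, against 1.18% and 2.62%. On array B 0 of 13 passed in either state, against 0.437% and 0.363% of all (1 in each at an unadjusted p under 0.05, against 7.86% and 9.28%).

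Psmc6, an ATPase of the base, gave the widest genotype differences among the array A members. Its probe set 1417770_s_at read 8.76, 8.77, 9.07 and 8.88 in wild type and 8.59, 8.50, 8.47 and 8.22 in the mutant without irradiation. With irradiation it read 8.52, 8.83, 8.59 and 8.83 in wild type and 8.26, 8.29, 8.19 and 8.00 in the mutant. Every mutant array lay below every wild type array of the same irradiation state. The differences were -0.42 (SE 0.11, adjusted p = 0.0367) and -0.51 (SE 0.11, adjusted p = 0.012). Leaving out 1 extract ended the unirradiated call in 7 of 16 cases (adjusted p up to 0.118) and the irradiated call in 0.

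The other Psmc6 probe sets differed in size. The dim 1417769_at read 5.65, 6.06, 6.51 and 5.64 in wild type and 5.53, 5.39, 5.43 and 5.55 in the mutant without irradiation (-0.49, adjusted p = 0.152). With irradiation it read 5.89, 6.33, 5.68 and 5.81 against 5.12, 5.28, 5.19 and 5.17 (-0.74, SE 0.17, adjusted p = 0.0219), a call lost when any 1 of 4 extracts was left out (adjusted p up to 0.0748). The brightest, 1417771_a_at, averaged over irradiation, differed by -0.15 (SE 0.05, adjusted p = 0.0522, and 0.0287 with the replicate block). The s_at probe set holds probes shared by several transcripts. All 3 had the same sign, from -0.62 to -0.15 when averaged over irradiation.

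Psmb5 was lower in unirradiated mutant cells. Array A values were 11.95, 12.07, 11.93 and 11.99 in wild type and 11.76, 11.79, 11.74 and 11.73 in the mutant, with no overlap (-0.23, SE 0.05, adjusted p = 0.0131). With irradiation the values were 12.08, 12.09, 12.07 and 11.98 in wild type and 11.86, 12.00, 11.88 and 11.88 in the mutant, where the groups overlapped (-0.15, SE 0.05, adjusted p = 0.11, and 0.0371 with the replicate block). The unirradiated calls of both Psmb5 (adjusted p = 0.0512) and Psmc6 (0.0554) ended without wild type unirradiated replicate 2, and the Psmb5 difference was -0.23 within each number run.

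The same Psmb5 probe set stands on array B, a second measurement of the same extracts. It read 11.95, 11.80, 11.88 and 11.96 in wild type and 11.69, 11.74, 11.67 and 11.53 in the mutant without irradiation. With irradiation it read 11.93, 12.00, 12.08 and 12.12 in wild type and 11.90, 11.86, 11.66 and 11.90 in the mutant. In both states every mutant array was below every wild type array. Averaged over irradiation Psmb5 fell on array A by 0.19 (SE 0.03, adjusted p = 0.00173) and on array B by 0.22 (SE 0.05, adjusted p = 0.0219). The array B call ended without wild type irradiated replicate 3 (adjusted p = 0.0516) and with quantile normalization (-0.18, adjusted p = 0.11).

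Averaged over irradiation, 1 of 65 member probe sets on array A was higher in the mutant and 4 lower, against 6.57% of all called higher and 4.02% called lower. On array B 1 of 13 was called, Psmb5, against 1.9%. The one that rose was Psme1 (0.19, SE 0.04, adjusted p = 0.00496). Every mutant array of Psme1 lay above every wild type array of the same irradiation state. Its difference was 0.18 without irradiation (SE 0.05, adjusted p = 0.0927) and 0.19 with it (SE 0.05, adjusted p = 0.0642), and the replicate block called both (adjusted p = 0.04 and 0.0264). The lower ones were Psmb5, both Psmc6 probe sets (1417770_s_at -0.47, SE 0.08, adjusted p = 0.00071, and 1417769_at -0.62, SE 0.12, adjusted p = 0.00326) and Psmc4 1416291_at. Psmc4, another ATPase of the base, fell by 0.17 (SE 0.05, adjusted p = 0.0308), a call lost when any 1 of 9 extracts was left out (adjusted p up to 0.0684). Without irradiation it read 10.85, 10.92, 11.00 and 11.12 in wild type and 10.88, 10.73, 10.85 and 10.88 in the mutant. With irradiation it read 11.13, 11.19, 11.12 and 11.04 in wild type and 10.87, 11.05, 10.89 and 10.83 in the mutant. The groups overlapped in both states. The second Psmc4 probe set differed by -0.08 (adjusted p = 0.758).

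By role, 3 of 15 base probe sets were lower, 1 of 10 in the beta ring, and 0 in the alpha ring (11), lid (13) and chaperones (8), which also had 0 at an unadjusted p under 0.05, against 23.6% of all. The probe sets with the smallest p in these roles were Psma1 1458292_at on array B without irradiation (-0.47, SE 0.23, adjusted p = 0.654) and Psma6 1437144_x_at with it (-0.13, SE 0.05, adjusted p = 0.24), Psmd13 (-0.11, SE 0.07, adjusted p = 0.547) and Psmd14 (-0.11, SE 0.07, adjusted p = 0.575), and Psmg2 1448212_at (-0.19, SE 0.12, adjusted p = 0.525) and 1425373_a_at (-0.20, SE 0.14, adjusted p = 0.604). With the replicate block 1 was called higher and 9 lower on array A, against 12.4% and 10.2% of all. On array B the block called 2 of 13 lower, Psma1 and Psmb5. The share of all array B probe sets called with the block is not given here, so that count has no background. On array A the block called 1 higher and 4 lower in unirradiated cells, against 6.41% and 4.68% of all, and 1 higher and 3 lower in irradiated cells, against 6.36% and 4.08%. In both states the higher one was Psme1. The lower ones were of Psmb5, Psmc6, Psmd4 and Psme3 without irradiation, and of Psmb5 and Psmc6 with it. Averaged over irradiation, the added genes were the ubiquitin receptor Psmd4 (1425859_a_at, -0.18, SE 0.04, adjusted p = 0.00288), the activators Psme3 (-0.25, SE 0.06, adjusted p = 0.00438) and Psme4 1426824_at (-0.21, SE 0.07, adjusted p = 0.0278), and Psma1. The other Psmd4 probe sets differed by -0.02 and 0.05 and the other Psme4 probe sets on array A by 0.01 and -0.03, all uncalled.

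Psma1, an alpha ring subunit, also stands on both array types with 1 probe set, 1415695_at. Averaged over irradiation it differed by -0.12 on array A (SE 0.06, adjusted p = 0.227; with the block SE 0.04, adjusted p = 0.0442) and by -0.19 on array B (SE 0.09, adjusted p = 0.346; with the block SE 0.04, adjusted p = 0.0105). The remaining repeated probe set, that of the base ATPase Psmc5, differed by -0.07 and -0.19 (adjusted p = 0.665 and 0.227). Array B minus array A, over the 16 extracts, was -0.07 ± 0.11 for Psmb5, 0.48 ± 0.14 for Psma1 and -0.38 ± 0.19 for Psmc5 (mean ± SD). Levels are therefore not compared across array types.

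**Figure D3:**
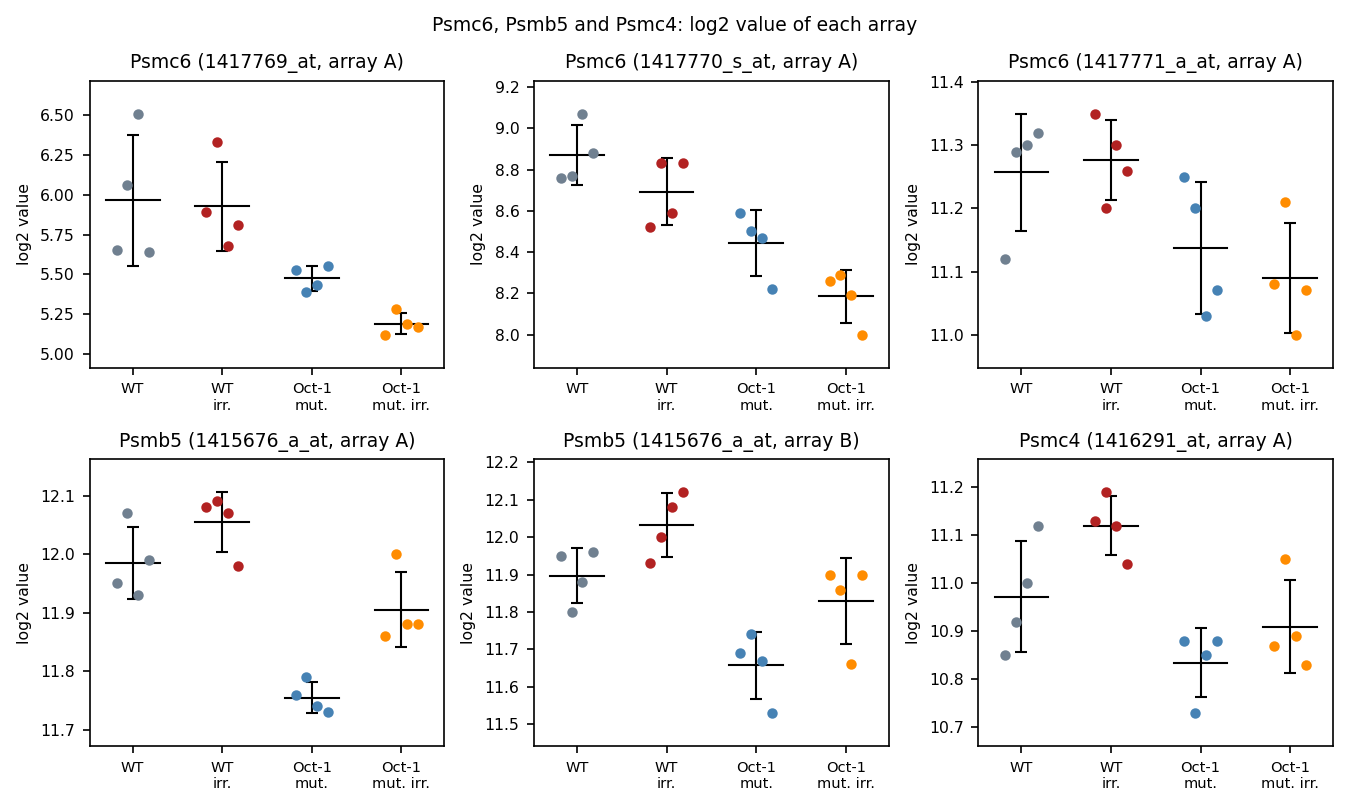
Log2 value (vertical axis) of the 3 Psmc6 probe sets, of Psmb5 on both array types and of Psmc4, by group; points are arrays, replicates 1 to 4 from left to right, and bars are the mean ± SD (n = 4). In Psmc6 1417770_s_at and in Psmb5 on array B, all mutant arrays lie below all wild type arrays of the same irradiation state.

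Whether the irradiation response differed between genotypes was tested as an interaction. Of 65 member probe sets on array A and 13 on array B, 0 were called, against 0% of all probe sets on both array types. At an unadjusted p under 0.05 there were 1 and 0 members, against 1.08% and 1.84% of all, and 0 were called with the replicate block. The 95% intervals of the interaction, over the highest-mean probe set of each gene, lay between -0.52 and 0.44 for the core, -0.63 and 0.42 for the base, and -0.25 and 0.38 for the lid. These are the outermost ends over all genes, and single genes had narrower intervals, such as Psmb6 (-0.18 to 0.16) and Psmb5 (-0.07 to 0.22).

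Core, base and lid were then set side by side. The median log2 difference after irradiation in wild type was 0.11 for the core (12 of 15 genes above 0), 0.14 for the base (8 of 9) and 0.05 for the lid (6 of 8), against 0.01 over all array A probe sets. In the mutant the medians were 0.10 (13 of 15), 0.08 (7 of 9) and 0.08 (8 of 8), again against 0.01. Within the core the averaged median was 0.15 for the beta ring and 0.05 for the alpha ring. For genotype the averaged medians were 0.003 for the core (8 of 15 above 0), -0.07 for the base (0 of 9) and -0.05 for the lid (1 of 8), against 0.0021 over all. These medians carry no test, and genes of a complex are not replicates of a condition. In bulk RNA, fewer cells of a type and less RNA per cell cannot be told apart.

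The per-array medians show the spread behind those values. For each gene the mean over 16 arrays was subtracted, and the median deviation over genes was taken on each array A. The core read -0.04, -0.07, -0.05 and 0.02 in unirradiated and 0.06, 0.04, 0.12 and 0.04 in irradiated wild type cells. In the mutant it read -0.09, -0.02, -0.07 and -0.05 without and -0.04, 0.07, 0.06 and 0.08 with irradiation. Wild type arrays separated by irradiation, and mutant arrays overlapped through irradiated replicate 1. The base read -0.07, -0.09, 0.04 and 0.02 against 0.13, 0.18, 0.15 and 0.08 in wild type. In the mutant the base read -0.02, -0.05, -0.12 and -0.12 against -0.05, 0.09, -0.06 and -0.05. The lid read -0.03, 0.02, -0.01 and 0.03 against 0.03, 0.08, 0.07 and -0.03 in wild type, which overlapped. The lid of the mutant read -0.10, -0.10, -0.07 and -0.08 against 0.00048, 0.04, 0.09 and -0.02, which did not overlap. For the base, the unirradiated wild type means of the 2 runs were -0.08 and 0.03, and the irradiated ones 0.16 and 0.11.

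**Figure D4:**
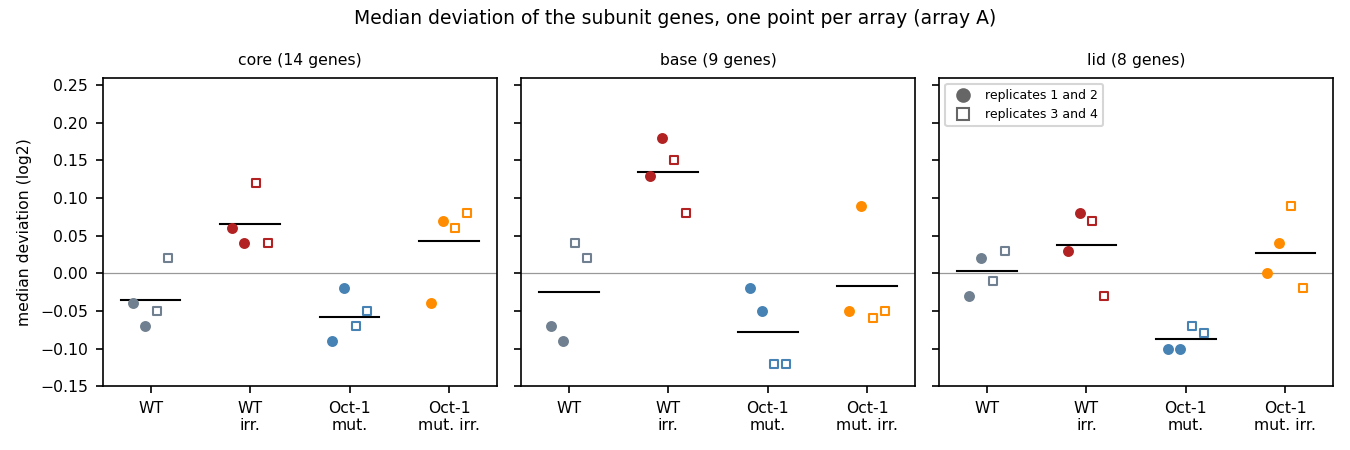
Median deviation from the gene means (log2, vertical axis) over the core, base and lid genes on each array A, by group; filled circles are replicates 1 and 2, open squares replicates 3 and 4, and lines are group means. The base of irradiated wild type cells lies between 0.08 and 0.18, above every other array but mutant irradiated replicate 2 (0.09), and the lid of unirradiated mutant cells between -0.10 and -0.07.

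Genes around the proteasome were read from lists by function. Of 9 measured particle and assembly genes outside the rule, 3 rose and 1 fell when averaged over genotype. Here and in the lists that follow, a gene counts when any of its probe sets was called (22 for these 9). Of all 12511 named genes 7.47% rose and 5% fell by that count. Pomp, the maturation factor of the core, rose by 0.21 (SE 0.05, adjusted p = 0.00951), the cap-associated thioredoxin Txnl1 on 1423299_at by 0.25 (SE 0.06, adjusted p = 0.0131) and the inhibitor Psmf1 on 1451337_at by 0.25 (SE 0.07, adjusted p = 0.0245). The other 3 Txnl1 probe sets were not called, and the brightest, 1436947_a_at, differed by -0.02 (SE 0.08, adjusted p = 0.905). The other Psmf1 probe sets differed by 0.12 and 0.10, uncalled. Akirin2, which brings proteasomes into the nucleus, fell from 10.76, 10.78, 10.74 and 10.77 to 10.28, 10.38, 10.50 and 10.43 in wild type (-0.36, SE 0.07, adjusted p = 0.00575). In the mutant it fell by 0.35 (SE 0.07, adjusted p = 0.00742), and the groups did not overlap in either genotype. Usp14, the deubiquitinase bound to the cap, was lower in the mutant on 2 probe sets (-0.19, SE 0.06, adjusted p = 0.0487, and -0.30, SE 0.09, adjusted p = 0.0376), against 4.14% of all named genes lower and 6.38% higher.

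Of 9 shuttle and segregase genes, 1 rose and 2 fell on irradiation averaged over genotype, against 7.47% and 5% of all named genes. Zfand2a 1415940_at, a stress-induced proteasome binder, rose by 0.39 (SE 0.09, adjusted p = 0.00751), the ubiquitin shuttle Ubqln2 1450021_at fell (-0.29, SE 0.08, adjusted p = 0.0196) and Zfand5 1416083_at, a proteasome activator, fell (-0.28, SE 0.05, adjusted p = 0.000788). Of 6 transcription and processing genes, the small Maf partners Mafk (0.25, SE 0.07, adjusted p = 0.0375) and Maff (0.30, SE 0.09, adjusted p = 0.0416) rose. Ngly1, the glycanase that processes Nfe2l1, fell (-0.22, SE 0.06, adjusted p = 0.0224), and Nfe2l1 itself differed by -0.04 (SE 0.07, adjusted p = 0.787). Nfe2l2 was higher in the mutant (0.23, SE 0.07, adjusted p = 0.0331), and Ubqln4 1448691_at lower (-0.28, SE 0.08, adjusted p = 0.0385). The other probe sets of Usp14, Zfand2a, Zfand5, Ubqln2 and Ubqln4 were not called in these averaged comparisons.

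The immunoproteasome subunits, which replace the catalytic beta subunits under interferon, were not called in any comparison. Psmb10 differed by 0.12 for irradiation (SE 0.06, adjusted p = 0.271) and 0.14 for genotype (SE 0.06, adjusted p = 0.189), Psmb8 on array B by 0.05 and 0.14 (adjusted p = 0.837 and 0.351), and Psmb9 did not pass the filter. Of 6 measured antigen presentation genes 2 rose on irradiation averaged over genotype, against 7.47% of all named genes. They were H2-K1 1451931_x_at by 0.22 (SE 0.06, adjusted p = 0.0321, its other probe sets uncalled) and the peptide transporter Tap1. No p-value is given for the Tap1 rise, and its call is not weighed against that share, for the reason that follows. All 4 unirradiated wild type values of Tap1 (4.01 to 4.50) and 2 of the mutant ones lay under the filter's minimum of 4.96, which the probe set passed through its irradiated arrays. With those values raised to the minimum, Tap1 was at least 3.89-fold higher after irradiation in wild type and at least 5.07-fold higher in the mutant. These bounds do not compare the genotypes, since 4 wild type values but only 2 mutant ones were raised. The measured means went from 4.30 to 6.92 in wild type and from 5.09 to 7.54 in the mutant. Among irradiated arrays alone it differed between genotypes by 0.62 (SE 0.18, adjusted p = 0.0783).

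**Figure D5:**
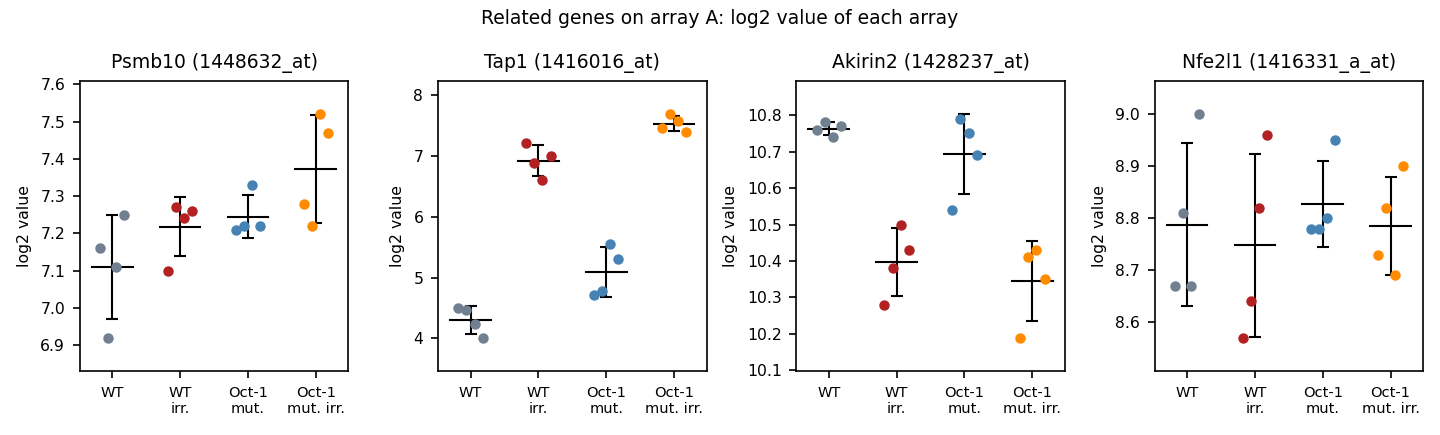
Log2 value (vertical axis) of Psmb10, Tap1, Akirin2 and Nfe2l1 on each array A, by group; points are arrays, replicates 1 to 4 from left to right, and bars are the mean ± SD (n = 4). Tap1 runs from 4.01 to 5.55 without and from 6.60 to 7.69 with irradiation, while Psmb10 stays between 6.92 and 7.52.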

How the data were processed

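The deposited values are probe set values of 16 arrays of each type, in log2 as read from their range (0.265 to 15.75 on array A, 0.0973 to 15.51 on array B). The sources used here do not say how the authors summarised and normalized them. Medians of the arrays lay between 6.16 and 6.28 and between 3.67 and 3.78, and no further scaling was applied. Probe sets were named through the platform annotation, with symbols updated by gene identifier to RefSeq (GRCm38.p6). Of non-control probe sets 20393 on array A and 14674 on array B had 1 gene, 691 and 245 several, and 1555 and 7605 none. The 64 controls per type were left out. Psme2 shares its probe set with Psme2b and is not a member.

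A filter kept means from the 40th percentile up (4.96 on array A, 3.36 on array B), leaving 13582 and 13502. Each type was fitted with limma 3.58.1 in R 4.3.3 (4 group means, moderated variance with an intensity trend), and p-values were adjusted by Benjamini-Hochberg over all kept probe sets of a type, per comparison. The code was tested on simulated data. Summaries used Python 3.11.15, numpy 2.4.6, pandas 2.3.3 and matplotlib 3.10.9. Gene medians use each gene's highest-mean passing probe set on array A, otherwise on array B. Named are all called members and, per role, the probe set with the smallest p in each simple comparison; of related lists, up to 4 called members. Members called with the replicate block alone were named after their values were seen. Alternatives were no filter, a 60th percentile filter, quantile normalization, no trend, a replicate block, a number run block, each run alone, leaving out each extract, and the mean over a gene's probe sets. Members and lists were chosen with earlier results of these data known.

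The replicate number of 1 sample, Oct-1 mutant unirradiated replicate 1 on array A, was taken from the label of the array B sample that shares its title number. Deviations from the group means had correlations between same-numbered samples of 0.32 to 0.72 (array A, median 0.58) and 0.24 to 0.6 (array B, median 0.44), so the numbers were treated as pairing the samples. Median correlations were 0.56 and 0.4 for other numbers in the same run, and -0.58 and -0.43 across runs, so the pairing follows the runs.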

Additional observations from a re-analysis of the deposited data

Results flagged for a closer look

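In 84 groups of 4 arrays tested for a single array apart from the others (Dixon's test at its 95% critical value), 5 arrays stood apart, and chance gives about 1 in 20. Psmb5 on array A read 12.00 in Oct-1 mutant irradiated replicate 2, against 11.86 to 11.88 in the others of the group. Psmg4 read 6.59 in mutant unirradiated replicate 1, against 6.89 to 6.93. Psmb7 read 12.52 in mutant irradiated replicate 1, against 12.71 to 12.72. Psmc5 on array B read 10.85 in wild type unirradiated replicate 3, against 10.93 to 10.95. The median deviation of the base was 0.09 in mutant irradiated replicate 2, against -0.06 to -0.05.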

How the results depend on the processing

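Called members in the order irradiation in wild type and mutant, genotype without and with irradiation, then the irradiation and the genotype average, numbered 3, 2, 2, 2, 9 and 6. With the replicate block they numbered 9, 13, 5, 5, 25 and 12, and the number run as block gave 8, 11, 5, 4, 25 and 12. All 24 calls made without a block remained with each block. The replicate block also raised the calls over all array A probe sets. For the irradiation average these went from 7.38% to 14.1% higher and from 5.47% to 11.1% lower. Shares of all probe sets under the number run block and in the single runs are not given here. Within the first run alone they numbered 0, 0, 0, 1, 5 and 1, and within the second 0, 0, 1 and 1, with 3 for the irradiation average, at 2 arrays per group; the cause was not tested beyond the fewer arrays. Without a filter, which tests more probe sets, irradiation gave 1 and 1 and genotype without irradiation 1; without the intensity trend irradiation gave 1 and 1, with quantile normalization 1 and 1, and the 60th percentile filter left 1 for genotype with irradiation, since it drops Psmc6 1417769_at. Leaving out 1 extract gave ranges of 0 to 3, 1 to 3, 0 to 2, 1 to 2, 7 to 11 and 5 to 8, and 0 to 0 for the interaction. Of the 24 calls, 5 ended with quantile normalization, 6 without a filter and 4 without the trend; 0 changed sign in any alternative run.

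Of the median differences, that of the core after irradiation in the mutant was 0.05 within the first run and 0.05 with the mean over a gene's probe sets, against 0.10. That of the lid was 0.15 and 0.04, against 0.08, and averaged over genotype 0.11 within the first run, against 0.05. The interaction median of the base was 0.01 within the second run, against -0.06. The cause was not tested. Changes near 0.1 lie inside the spread of most single member probe sets, 4 arrays per group limit what can be seen, and background was not measured.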

Other observations

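Of the 4 member genes on chromosome 14 (Psmb5, Psmc6, Psmd6 and Psme1, by RefSeq GRCm38.p6), 3 were called for genotype averaged over irradiation, 2 lower and 1 higher in the mutant. Of all 415 tested array A probe sets of genes on chromosome 14, 74 (17.8%) were called in that comparison, against 7.44% to 13.7% on the other autosomes and 14.6% on X. The fourth called gene, Psmc4, lies on chromosome 7 (9.26%). These shares are of probe sets, whereas a member gene counted when any of its probe sets was called, so the counts are not comparable.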
